A study of Mus musculus with 54 samples.

Results

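The mouse genome holds 39 protein-coding Hox genes in 4 clusters, and all 39 were found by symbol (Hoxa, Hoxb, Hoxc or Hoxd followed by a number) among the 47069 genes of a count table of mouse brain RNA. The Hoxa cluster lies on chromosome 6 (chr6:52155590-52260880, minus strand, GRCm38) with 11 genes. The Hoxb cluster lies on chromosome 11 (chr11:96194316-96368256, plus strand) with 10 genes. The Hoxc cluster lies on chromosome 15 (chr15:102921103-103036852, plus strand) with 9 genes. The Hoxd cluster lies on chromosome 2 (chr2:74668310-74765142, plus strand) with 9 genes. Genes with the same number in different clusters form a paralogue group, and there are 13 such groups.

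Hox genes encode homeodomain transcription factors that set positional identity along the head-to-tail axis. In the embryo the low-numbered genes are switched on first and reach farthest forward, into the hindbrain, while the high-numbered genes are restricted to the spinal cord and trunk. The forebrain and the tissue that forms the cerebellum lie in front of the Hox-expressing territory, and adult neurons of the medulla and spinal cord keep a Hox code that reflects their level of origin. Polycomb complexes hold the clusters silent where they are not used.

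Polyadenylated RNA of 3 brain regions (cerebellum, cortex, striatum) was sequenced from 18 mice aged 8 weeks, each giving 1 library per region. Of these mice, 10 were Mbd5+/GT, heterozygous for a gene-trap insertion (pU-21B) in an intron of Mbd5 that makes a hypomorphic allele, and 8 were wild-type (WT) littermates, all on a C57BL/6 background. The animals came from 3 litters and both sexes. Gene counts totalled 25295973 to 49027399 reads in a library (median 29073866). Mbd5, the targeted gene, had lower expression in Mbd5+/GT than in WT libraries in cerebellum (log2FC = −0.34, SE 0.05, adjusted p = 0.0091), cortex (log2FC = −0.49, SE 0.05, adjusted p = 0.00012) and striatum (log2FC = −0.51, SE 0.05, adjusted p = 9.4e-05) by the quasi-likelihood test of edgeR, adjusted by Benjamini-Hochberg over all genes tested. Libraries are named below by the mouse number in their labels.

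Before the Hox values, 1 library has to be set apart. The library labelled cerebellum of mouse M755 (Mbd5+/GT) lacked the cerebellar signature: the 8 genes of a cerebellum marker list summed to 125 CPM (counts scaled to a common library total) in it, against 5827 to 6894 CPM in 13 of the other cerebellum libraries, 31.0 to 135 CPM in the cortex and 24.6 to 191 CPM in the striatum. Pcp2, a Purkinje cell gene, had 51 counts in library M755 and 5774 to 16300 in those 13. Gabra6, a GABA receptor subunit of cerebellar granule cells, had 56 counts in library M755 and 17674 to 43579 in those 13. Results that rest on this library are given with and without it.

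Most Hox counts came from a few cerebellum libraries. Summed over the 39 genes, the cerebellum libraries held 29297 Hox counts, of which 4 libraries contributed 98.7%. Library M755 (Mbd5+/GT) had 18576 Hox counts (599 CPM). Library M754 (WT) had 5912 counts (176 CPM), library M761 (WT) 2079 counts (68.6 CPM) and library M756 (Mbd5+/GT) 2358 counts (65.9 CPM). Library M762 (WT) stood lower, with 147 counts (5.05 CPM).

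The other 13 cerebellum libraries had between 3 and 58 Hox counts with a median of 12, or 0.110 to 1.62 CPM with a median of 0.397 CPM. The highest of them was library M768 (Mbd5+/GT) with 58 counts. Library M755 was at 1508 times and library M756 at 166 times their median CPM. Cortex libraries had 0 to 11 Hox counts in all (median 5, 99 counts over 18 libraries), and striatum libraries had 4 to 16 (median 9.5, 174 counts). The 4 high cerebellum libraries stood far above every other library of the series, while the 13 low cerebellum libraries overlapped with those of the cortex and the striatum.

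**Figure D1:**
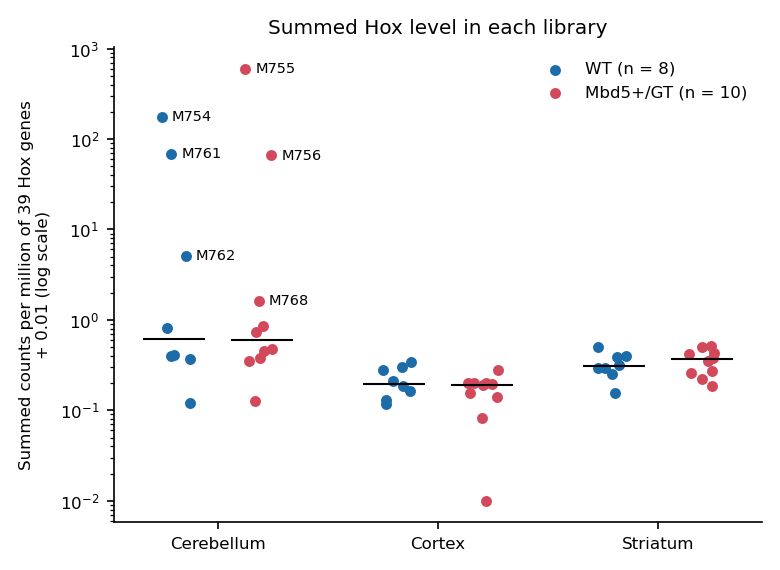
Summed CPM of the 39 Hox genes plus 0.01 (log scale) in every library, by region and genotype, with WT (n = 8) in blue and Mbd5+/GT (n = 10) in red and the group median as a line. Libraries M755, M754, M761 and M756 sit between 65.9 and 599 CPM, library M762 at 5.05 CPM, and every other library at or below 1.62 CPM.

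The high libraries were not of 1 genotype or litter. Of the 5 libraries with over 100 Hox counts, 2 were Mbd5+/GT and 3 were WT, 2 came from litter 1 and 3 from litter 3, and 0 came from litter 2. All 5 came from females, of 10 female and 8 male cerebellum libraries, and the other 5 female libraries were low. Litter 1 held females alone and litter 2 males alone, so sex and litter cannot be told apart between these, and litter 3 held both. The labels also carry a code for each library. It reads C4, D4 and E4 for M754, M755 and M756 and B5 and C5 for M761 and M762, so the high libraries had neighbouring codes in 2 runs. What the code stands for is not given in the labels.

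Most listed markers of motor neurons and of other brainstem neurons were higher in the high libraries. A list of 5 cholinergic motor neuron genes (Chat, Slc18a3, Slc5a7, Isl1 and Prph) summed to 151 CPM in library M755, 42.8 in M754, 12.4 in M761, 5.61 in M756 and 0.688 in M762, against 0.256 to 1.37 CPM in the other 13. All 5 genes were higher in each of the 4 high libraries than in any of those 13. The forebrain also expresses these genes, with sums of 2.42 to 87.9 CPM in cortex (median 25.8) and 1.79 to 92.3 CPM in striatum (median 48.2), so the list does not mark the hindbrain alone. Without the 4 libraries all 5 were lower in WT cerebellum than in WT cortex (median log2FC −6.41) and WT striatum (−7.66). A list of 7 other brainstem neuron genes summed to 547, 400, 158 and 124 CPM in libraries M755, M754, M761 and M756. It was at 49.3 to 67.9 CPM in the 13, 67.6 CPM in M762 and at most 26.1 CPM in a forebrain library. Of its 7 genes, 5 separated in the same way, and Tlx3 and Uncx did not. Uncx had 54, 245 and 264 counts in M755, M754 and M761, below the 275 to 870 of the 13, and 441 in M756. Tlx3 had 71, 68, 95 and 134 counts in M755, M754, M761 and M756, within the 67 to 317 of the 13. As a background, 6.34% of 18157 genes passing the filter in cerebellum were higher in all 4 libraries than in all 13, and 2.74% were lower.

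Chat and Slc6a5 showed the same order of libraries, as did Slc18a3, Slc5a7, Prph, Lmx1b and Sncg of these lists. Others, such as Pou4f1 and Gata3, did not. Chat, which makes acetylcholine, had 558 counts in library M755, 202 in M754, 34 in M761, 19 in M756 and 1 in M762, against 0 to 3 elsewhere. Slc6a5, the glycine transporter of inhibitory brainstem and spinal neurons, had 13713, 11213, 3674, 3435 and 1486 counts in the same order, against 645 to 1517. The serotonergic list (3 genes) reached 15.1 CPM in M755, 6.38 in M754, 2.54 in M761 and 0.531 in M756, against 0.491 to 1.98 CPM, and none of its genes separated the 4 libraries from the 13. The noradrenergic list (4 genes) reached 10.2, 12.4, 6.27 and 1.56 CPM, against 0.0289 to 6.33 CPM, and 1 of its genes separated them.

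The sum of the cerebellar markers ran the other way. It was 125 CPM in library M755, 1997 in M754, 4345 in M761 and 5561 in M756, each below the 13 low libraries, and 6278 in M762, inside their range. Of the 8 genes, 3 were lower in all 4 libraries than in all 13. In M756 single genes lay inside the range of the 13, such as Gabra6 with 26287 counts against 17674 to 43579. The cortex list was also higher in the 4 libraries, at 431, 329, 175 and 149 CPM against 77.2 to 92.3 CPM in the 13, below the 484 CPM of the lowest cortex library. In bulk tissue, fewer cells of a type and less RNA per cell cannot be told apart, and the part of these cell types in the Hox values was not tested.

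**Figure D2:**
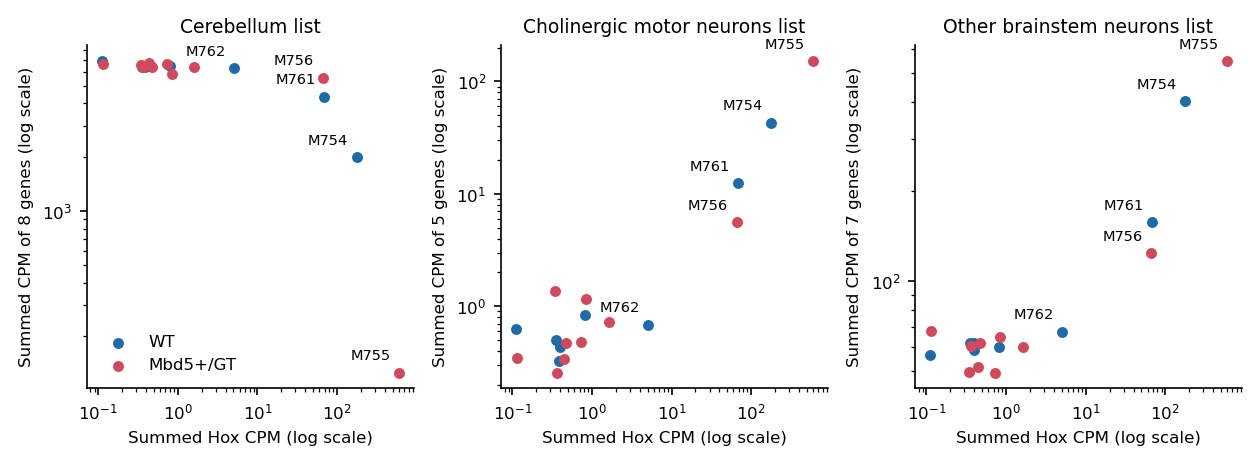
Summed CPM of 3 marker lists (log scale) against summed Hox CPM (log scale) in the 18 cerebellum libraries, WT in blue and Mbd5+/GT in red. The cerebellum list falls to 125 CPM in library M755, while the cholinergic motor neuron list rises to 151 CPM and the other brainstem list to 547 CPM in the same library.

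In the 4 high libraries the Hox counts came from an ordered part of each cluster. Of the 39 genes, 25 reached 10 counts in at least 1 cerebellum library, 19 reached 100 counts, and 17 had at least 10 counts in all 4 high libraries. No gene had 10 counts in any cortex or striatum library, where the highest count was 6. Of the 39, 7 genes had no count in any library of the series, and 10 had none in cerebellum. The 12 genes of paralogue groups 10 to 13 had 22 counts over the 18 cerebellum libraries together.

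The 3 genes with the largest counts in library M755 or M754 were Hoxb8, Hoxb5 and Hoxa5. To show how promoters of the members differ in sequence, 300 bases around the annotated start of Hoxa5, Hoxb8 and Hoxd8 (the gene with the largest ratio between libraries M755 and M754 among those with over 500 counts), chosen after their values were seen, are given from RefSeq, GRCm38.p6, 250 bases before to 50 after the start, 5′ to 3′ on the gene's strand, with every CpG in capitals.
Hoxa5 (chr6:52204538-52204837, minus strand): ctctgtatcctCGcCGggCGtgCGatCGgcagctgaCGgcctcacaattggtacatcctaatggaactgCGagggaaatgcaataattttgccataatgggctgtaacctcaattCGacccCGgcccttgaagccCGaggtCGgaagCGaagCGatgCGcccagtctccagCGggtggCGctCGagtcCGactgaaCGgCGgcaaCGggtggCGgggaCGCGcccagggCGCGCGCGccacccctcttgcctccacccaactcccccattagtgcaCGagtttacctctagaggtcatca
Hoxb8 (chr11:96281655-96281954, plus strand): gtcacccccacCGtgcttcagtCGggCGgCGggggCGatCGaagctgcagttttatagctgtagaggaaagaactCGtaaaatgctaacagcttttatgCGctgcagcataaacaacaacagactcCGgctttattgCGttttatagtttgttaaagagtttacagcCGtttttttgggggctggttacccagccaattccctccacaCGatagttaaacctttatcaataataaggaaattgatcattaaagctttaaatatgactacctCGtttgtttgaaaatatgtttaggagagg
Hoxd8 (chr2:74704365-74704664, plus strand): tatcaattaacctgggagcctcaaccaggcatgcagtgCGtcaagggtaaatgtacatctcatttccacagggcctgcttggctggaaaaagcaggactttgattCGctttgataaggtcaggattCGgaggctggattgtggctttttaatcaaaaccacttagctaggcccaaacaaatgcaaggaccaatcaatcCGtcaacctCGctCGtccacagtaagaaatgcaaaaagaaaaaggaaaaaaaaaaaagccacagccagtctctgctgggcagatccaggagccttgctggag
The Hoxa5 window held 29 CpG and 61.7% G+C, the Hoxb8 window 13 CpG and 42.3%, and the Hoxd8 window 6 CpG and 46.7%. RefSeq gave 24 such windows for 22 of the 39 genes, with a median of 14.5 CpG (4 to 45) and 57.7% G+C, where all 32851 windows of the table had medians of 7 CpG and 52.7%. The letters TGATNNAT, a form of the site that Pbx proteins and Hox proteins bind together, were searched on both strands. They occurred in 4 of the 24 Hox windows (16.7%), the Hoxb8 window among them, and in 8.85% of all windows.

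Groups 1 to 3 were the low end of the series. These genes pattern the hindbrain in the embryo, and Hoxa2 reaches farthest forward in it. Hoxa2 had 169 counts in library M755, 132 in M754, 37 in M761, 32 in M756 and 2 in M762, and at most 2 in the other 13. Hoxb2 had 362, 227, 82, 73 and 4 counts in the same order, and at most 3 in the others. Hoxa3 had 398, 299, 106, 94 and 5 counts, and Hoxb3 had 1139, 657, 326, 245 and 13. Each of these genes gave the 4 high libraries values that did not overlap with the 13, and library M755 was highest for each. The libraries were divided by summed Hox counts that include these genes, so the lack of overlap follows in part from that division.

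The share of groups 1 to 3 in a library's Hox counts was 12.7% in library M755, 26.2% in M754, 31.1% in M761 and 21.1% in M756. Hoxb1 had 1 count in M755, 2 in M754 and none in any other cerebellum library. Hoxd3 had 165, 142, 71 and 34 counts, but 62.3% of its exon length is shared with another gene on the same strand, so its reads are uncertain. Likewise 52.3% of Hoxd4's exon length is shared on the same strand, and 52.9% of Hoxb3's exon length has an antisense gene.

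Group 4 and group 5 genes together took the largest share in libraries M754, M761 and M756. Hox genes of these groups mark the caudal hindbrain and the cervical cord. Hoxb5 had 2680 counts in M755, 1287 in M754, 338 in M761, 478 in M756 and 12 in M762, and at most 9 elsewhere. Hoxa5, which also patterns the phrenic motor column, had 2004, 910, 340, 423 and 16 counts, and at most 7 elsewhere. Hoxc4 had 919, 516, 163, 183 and 5 counts, and at most 3 elsewhere. All 3 genes put library M755 first and M754 second, and M761 and M756 close together.

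Per kilobase of exon, the scale on which genes can be compared, Hoxa5 (14.4 CPM per kb) and Hoxb5 (13.8) led in library M754. The level of Hoxa5 was 6.30 CPM per kb in M756 and 5.97 in M761, and that of Hoxb5 was 4.79 and 4.00. In library M755 Hoxb8 led with 44.1 CPM per kb, followed by Hoxa5 (34.5), Hoxb5 (31.0), Hoxb6 (21.9) and Hoxb7 (16.0). Hoxb8 was thus at 2.74 CPM per kb in library M754, below Hoxa5 and Hoxb5, and above both in M755.

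Groups 6 to 8 took a larger share in library M755 than in the other 3 high libraries. These genes are used in the embryo at brachial and thoracic levels. Hoxb8 had 3601 counts in M755, or 19.4% of its Hox counts (95% exact binomial interval 18.8% to 20.0%), and 242 counts in M754, or 4.09% (3.60% to 4.63%). In M756 it had 166 counts (7.04%), in M761 73 counts (3.51%), and in M762 33 counts of 147 (22.4%, 16.0% to 30.1%). The intervals cover counting error only.

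Hoxd8 counts came almost wholly from library M755, with 883 counts there, 8 in M754, 5 in M756, 5 in M768 and 2 in M761. Hoxa7 had 771 counts in M755 and 19, 5 and 4 in M754, M761 and M756. Hoxc6 had 456 counts in M755 and 19, 12 and 5 in the same order. Hoxb6 was more evenly spread, with 1334, 300, 102 and 171 counts in M755, M754, M761 and M756, and Hoxb7 had 53, 26 and 36 in M754, M761 and M756 and held 4.11% of the Hox counts of M755. Together groups 6 to 8 took 43.4% of the Hox counts of library M755 (42.7% to 44.2%), 11.1% of M754 (10.4% to 12.0%), 11.3% of M761 (9.93% to 12.7%) and 17.0% of M756 (15.6% to 18.6%). Library M762 was at 46.3% (38.0% to 54.7%) on 147 counts, overlapping the interval of M755 and not those of M754, M761 and M756.

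Group 9 genes, which mark the thoracic and lumbar cord, were counted in library M755 alone beyond 1 count. Hoxb9 had 367 counts there (1.98% of its Hox counts) and 0 in M754, M761 and M756, which allows a share of up to 0.0507% in library M754, 0.144% in M761 and 0.127% in M756. Hoxa9 had 35 counts in M755 and Hoxd9 had 30, and both were at 0 in the other 3 high libraries. Hoxc8 of group 8 behaved alike, with 90 counts in M755 and 0 in every other cerebellum library. With Hoxd8, these were the 5 genes that reached 10 counts in no library but M755. From group 10 on, library M755 held few counts, with 4 of Hoxa10, 1 of Hoxc10 and 2 of Hoxd13.

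**Figure D3:**
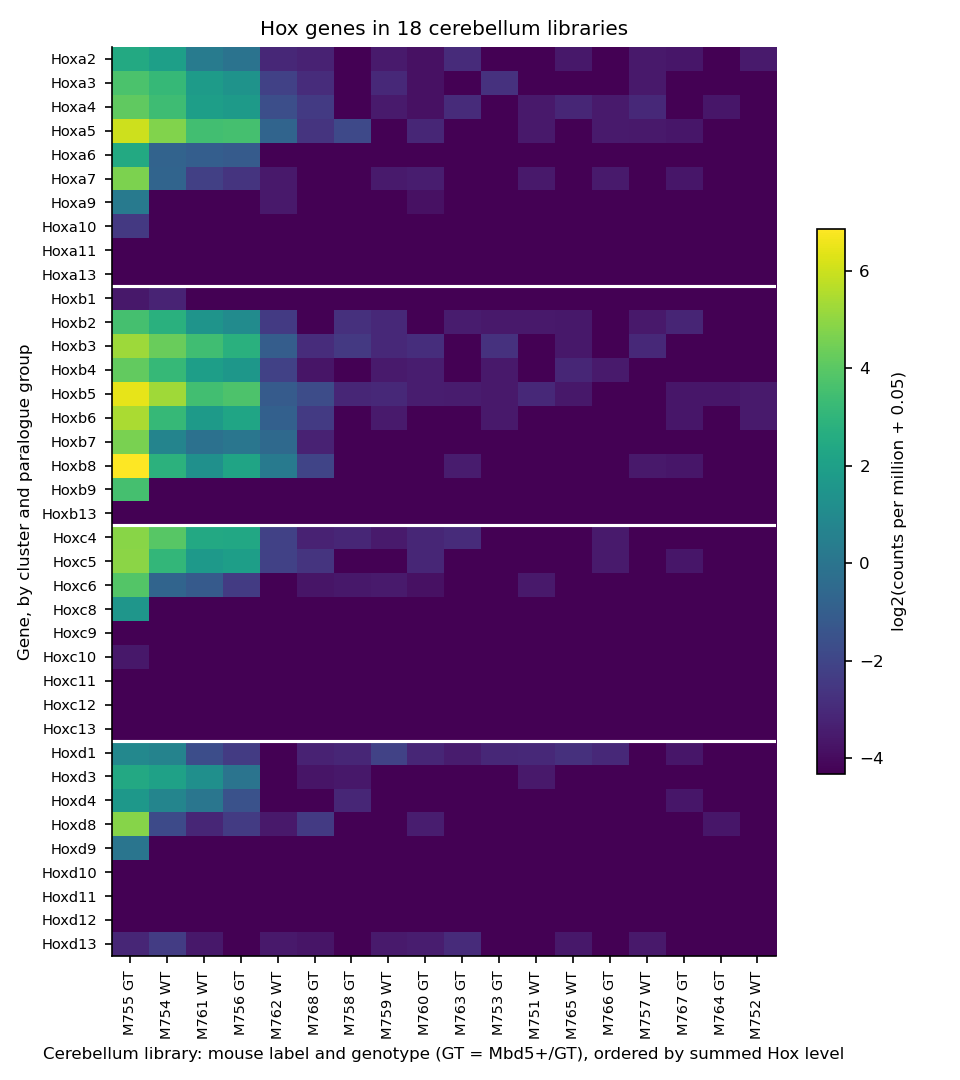
log2(CPM + 0.05) of the Hox genes reported by name (rows, by cluster and paralogue number) in the 18 cerebellum libraries (columns, ordered by summed Hox level). Library M755 is bright for most genes of groups 1 to 9, libraries M754, M761 and M756 for most genes of groups 1 to 8, and the genes of groups 10 to 13 have at most 5 counts in any library.

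By paralogue group, the counts of library M755 were 120, 531, 1702, 2105, 5608, 1962, 1535, 4574 and 432 in groups 1 to 9. Those of library M754 were 92, 359, 1098, 1223, 2476, 337, 72, 250 and 0. Both rose to group 5 and again from group 7 to group 8, and the peak at group 8 was the larger in M755. A group was taken as present in a library at 3 counts or more over its genes. At that level library M755 had 10 groups present (1 to 10), M754 had 9 (1 to 8 and 13), M756 and M761 had 8 each, M762 had 7 and M768 had 6.

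No paralogue group was present in every cerebellum library. Group 1 and group 4 were present in 12 of 18 cerebellum libraries, group 3 in 11, group 5 in 10 and group 2 in 9. Groups 6 and 8 were present in 6, group 7 in 5, and groups 9, 10 and 13 in 1 each. In the cortex, group 4 was present in 4 of 18 libraries, group 1 in 3 and group 7 in 2. In the striatum, group 1 was present in 15 of 18 libraries and group 7 in 7. Counting a group as present from 1 count, group 5 alone was present in all 18 cerebellum libraries.

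**Figure D4:**
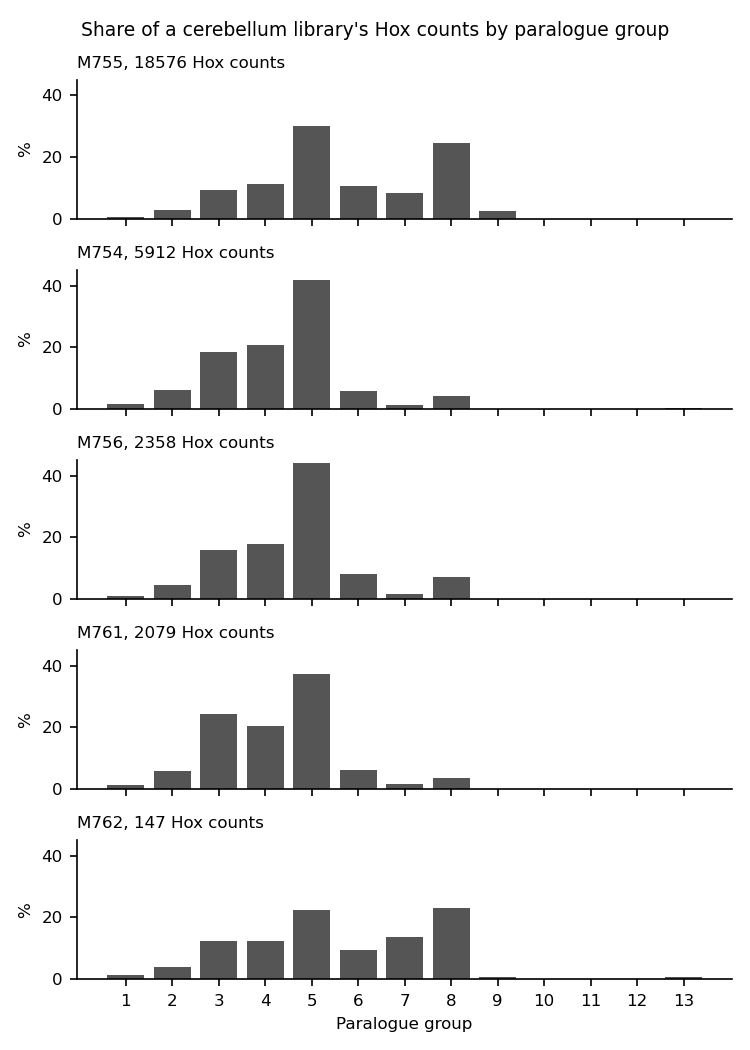
Share of a library's Hox counts (%) in each of the 13 paralogue groups, for the 5 cerebellum libraries with over 100 Hox counts. Group 5 is the tallest bar in libraries M755, M754, M756 and M761, groups 6 to 8 hold 43.4% in M755 and 11.1% in M754, and groups 10 to 13 are near 0 in all 5.

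The 4 clusters kept the same order by share in the high libraries, while the shares themselves differed. Hoxb held the most in each, from 51.1% of the Hox counts in M761 to 58.1% in M755. Hoxa held 22.4%, 29.9%, 30.4% and 29.9%, and Hoxc 12.9%, 13.8%, 13.1% and 13.7%. Hoxd, the lowest in all 4, held 6.63%, 4.45%, 5.39% and 2.33%. Hoxa was lowest in M755, and Hoxd was highest in M755 and lowest in M756.

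In cortex and striatum a small set of members gave most of the few Hox counts. Hoxd1, an anterior group 1 gene, was the most counted Hox gene of the striatum, with 1 to 6 counts per library in Mbd5+/GT (median 2.5) and 1 to 5 in WT (median 3). Its cortex counts were 0 to 4 in Mbd5+/GT (median 1) and 0 to 2 in WT (median 1). In cerebellum they were 0 to 57 in Mbd5+/GT (median 2) and 0 to 52 in WT (median 2.5), with 57 in library M755 and 52 in M754. Summed over libraries, the Hoxd1 level was 0.105 CPM in striatum (95% exact Poisson interval 0.0790 to 0.136), 0.0350 CPM in cortex (0.0211 to 0.0547) and 0.0572 CPM in the 13 low cerebellum libraries (0.0362 to 0.0858). The striatum interval does not overlap that of the cortex, and it overlaps that of the 13 cerebellum libraries. These intervals pool the reads of several libraries and cover counting error only, not the spread between mice. The test that uses the spread between mice is given below.

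Hoxa7 and Hoxb4 were the next most counted in the forebrain. Hoxa7 had 31 counts over the striatum libraries (0.0591 CPM, 0.0402 to 0.0839) and 22 over the cortex libraries (0.0405 CPM, 0.0254 to 0.0614). Hoxb4 had 19 (0.0362 CPM) and 20 (0.0368 CPM). The intervals of both genes overlapped between the forebrain regions. In the 13 low cerebellum libraries the most counted members were Hoxb5 and Hoxd1 with 23 counts each, Hoxb3 with 19 and Hoxa5 with 18.

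The comparison of regions across all genes asked whether Hox genes differed between cerebellum and forebrain beyond the spread between mice. Only Hoxd1 of the 39 passed the filter of more than 4 counts in at least 8 of the 54 libraries. In WT mice Hoxd1 was higher in cerebellum than in cortex (log2FC = 3.04, SE 0.91, adjusted p = 0.0039, edgeR's quasi-likelihood test), where 55.8% of 20477 genes tested were called and 28.2% were called and higher. In Mbd5+/GT mice it was also higher (log2FC = 2.36, SE 0.79, adjusted p = 0.0085, with 59.9% of all genes called and 31.0% called and higher), and with mouse as a block it did not pass (log2FC = 1.58, adjusted p = 0.066). Against striatum it did not pass in WT (log2FC = 1.41, adjusted p = 0.10, 65.5% called) or in Mbd5+/GT (log2FC = 1.09, adjusted p = 0.16, 64.9% called). The comparisons with cortex and with striatum share their cerebellum libraries.

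These Hoxd1 differences rested on the high libraries. Without libraries M755, M754, M756 and M761, and with no filter, the WT difference from cortex was 0.88 (adjusted p = 0.36) and that in Mbd5+/GT 0.22 (adjusted p = 0.86). Without library M755 alone the Mbd5+/GT difference was 0.46 (adjusted p = 0.68). Against striatum the direction turned without the 4 libraries, to −0.78 in WT (adjusted p = 0.34) and −1.07 in Mbd5+/GT (adjusted p = 0.11). Between cortex and striatum of WT mice, Hoxd1 was at −1.63 (adjusted p = 0.18, 47.0% of all genes called), and at −1.66 (adjusted p = 0.033) without the 4 libraries and the filter.

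With no filter, 32 of the 39 genes could be tested, as 1 count over all libraries admitted a gene. Of the 39, 21 had no count in cortex and 18 had none in striatum, each number including the 7 without a count anywhere. A gene without counts in a forebrain region could not be called lower in cerebellum than there. The direction of many calls below was thus fixed in advance, and the shares of all genes are given for scale only. In WT mice 17 were higher in cerebellum than in cortex and 0 were lower, where 34.9% of 34119 genes were called and 18.8% were called and higher. In Mbd5+/GT mice 23 were higher (38.4% called, 20.2% higher). Against striatum 18 were higher and 1 lower in WT (41.2% called, 20.5% higher), and 22 were higher and 1 lower in Mbd5+/GT (41.0% called, 21.0% higher). The gene lower than in striatum was Hoxb13 in both genotypes, with 0 counts in every cerebellum library and at most 2 in a striatum library. Between cortex and striatum 0 Hox genes were called by edgeR (1 had an unadjusted p under 0.05), while 26.8% of all genes were called. DESeq2 called 2, Hoxa5 and Hoxb7, each on at most 1 count in a WT cortex or striatum library, and 29.1% of all genes.

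The 17 genes higher in WT cerebellum than in WT cortex included Hoxa2 to Hoxa5, Hoxb2 to Hoxb8, Hoxc4, Hoxc5, Hoxd1, Hoxd4 and Hoxd13. In WT, Hoxb4 had 0 to 302 counts in cerebellum (median 1.5) and 0 to 3 in cortex (median 1.5), and its log2FC was 4.83 (SE 1.36, adjusted p = 0.0036). The medians were equal, and the highest counts were those of libraries M754 and M761. Hoxb8 had 0 to 1 counts in cortex libraries and a WT log2FC of 7.36 (SE 2.34, adjusted p = 0.011). Hoxa5 had a WT log2FC of 8.60 (SE 2.35, adjusted p = 0.0036), again with 0 to 1 counts in cortex. With so few cortex counts these folds depend on the prior count and are not bounds. Hoxd13 was called on 0 to 5 counts in cerebellum libraries.

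The 23 genes higher in Mbd5+/GT cerebellum held 16 of those and Hoxa6, Hoxa7, Hoxa9, Hoxb9, Hoxc6, Hoxd3 and Hoxd8. Hoxa7 had 0 to 771 counts in Mbd5+/GT cerebellum (median 0.5) and 0 to 2 in cortex (median 1), with a log2FC of 6.33 (SE 1.22, adjusted p = 2.5e-05). Without library M755 the Mbd5+/GT value was −0.08 (SE 0.85, adjusted p = 1), and of the 7 further genes Hoxd8 alone was still called (log2FC = 2.56, SE 0.96, adjusted p = 0.029). In WT the log2FC of Hoxa7 was 0.88 (SE 1.43, adjusted p = 0.72), with 0 to 19 counts in cerebellum. The difference of the region effects between genotypes did not pass for any Hox gene by edgeR (0 called, and Hoxa7 at an unadjusted p under 0.05 for both cortex and striatum, but at 0.44 and 0.33 without library M755), and 0% of all genes were called. DESeq2 called 1 for striatum, Hoxa5, and 0.00586% of all genes. Hoxa5 had 0 counts in every WT striatum library and at most 2 in an Mbd5+/GT one. Its log2FC there, −18.66, therefore has no defined size.

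The number of Hox genes called against cortex fell with the 4 high libraries left out. Without library M755, 20 of 28 tested were called in WT (35.1% of all genes called, 17.3% higher) and 14 in Mbd5+/GT (39.8%, 18.7% higher). Without the 4 high libraries, 12 of 27 were called in WT (35.8%, 17.5% higher) and 7 in Mbd5+/GT (39.9%, 19.5% higher). Without these and library M762, 3 of 27 were called in WT (35.2%), Hoxa2, Hoxb2 and Hoxd13, and 7 in Mbd5+/GT (40.2%), Hoxa2, Hoxa3, Hoxa4, Hoxa5, Hoxb5, Hoxb8 and Hoxc4. All of these Hox genes were higher in cerebellum, the only direction open to a gene with no cortex count. In that last setting 16.9% of all genes were called and higher in WT and 19.7% in Mbd5+/GT. The 4 and the 5 libraries were chosen by their summed Hox counts, so a fall in Hox calls follows in part from that choice. The shares of all genes were not trimmed in this way, so setting the Hox calls beside them decides nothing. In the same setting Hoxb5 had a log2FC of 3.99 (SE 0.87, adjusted p = 0.0004) in Mbd5+/GT, with at most 9 counts in a library.

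The genotype comparison within each region asked whether Mbd5 reduction moved Hox expression. No Hox gene passed the filter in any region (0.00551% of all genes were called in cerebellum, 0.0107% in cortex and 0.00539% in striatum). The summed Hox level was 0.116 to 599 CPM in Mbd5+/GT cerebellum (median 0.595, n = 10) and 0.110 to 176 CPM in WT (median 0.603, n = 8), so the groups overlapped over almost their whole range. In cortex the medians were 0.182 CPM in Mbd5+/GT and 0.188 CPM in WT, and in striatum 0.356 and 0.298 CPM.

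With no filter, 1 of 29 tested Hox genes was called between genotypes in cerebellum, where 0.00657% of all genes were called. This was Hoxd8 (log2FC = 3.61, SE 0.55, adjusted p = 0.0097), a gene with 883 counts in library M755 and at most 8 in any other. Without library M755 its log2FC was 2.01 (adjusted p = 1), and with no surrogate variables 5.85 (adjusted p = 1). In cortex 0 of 18 and in striatum 0 of 21 tested Hox genes were called by edgeR, with 2 at an unadjusted p under 0.05 in each (0.0222% and 0.00321% of all genes called).

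Other transcripts of the clusters rose in the same libraries. The annotation places 46 further genes inside the 4 spans, of which 26 had no count in the series and 15 reached 10 counts in a cerebellum library, 13 of them with their highest count in library M755. Haglr, a long non-coding RNA of the Hoxd cluster, was the only 1 with at least 10 counts in 9 or more cerebellum libraries. It had 151 counts in M755, 92 in M754, 29 in M756, 25 in M761 and 3 in M762, with a median of 10 over all cerebellum libraries, 4.5 over the cortex and 13.5 over the striatum. It was higher in WT cerebellum than in WT cortex (log2FC = 1.89, adjusted p = 0.0074), and without the 4 libraries this was 0.66 (adjusted p = 0.18). Between WT cortex and WT striatum its log2FC was −1.29 (adjusted p = 0.085), and −1.36 (adjusted p = 0.045) with mouse as a block.

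Hoxaas2, an antisense RNA of the Hoxa cluster, had 239 counts in M755, 208 in M754, 87 in M761 and 73 in M756. Hoxb3os had 224, 204, 108 and 63 counts in the same order. Both were nearly as high in M754 as in M755, unlike Hoxd3os1, with 99 counts in M755, 2 in M754, 0 in M761 and 1 in M756. Hotairm1, a non-coding RNA of the Hoxa cluster, had 64, 48, 13 and 13 counts. Where the strand column of the counting is unknown, reads of a gene and its antisense partner cannot be told apart.

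The clusters also hold the genes of the miR-10 and miR-196 families, shown because the mature sequences of each family share their seed (bases 2 to 8, in capitals, from RefSeq GRCm38.p6).
mmu-miR-10a-5p (chr11:96317186-96317208, plus strand): uACCCUGUagauccgaauuugug
mmu-miR-10b-5p (chr2:74726074-74726096, plus strand): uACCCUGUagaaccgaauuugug
mmu-miR-196a-5p (chr11:96265187-96265208, plus strand): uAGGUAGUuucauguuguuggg
mmu-miR-196b-5p (chr6:52230129-52230150, minus strand): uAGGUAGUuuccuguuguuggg
Polyadenylated libraries do not measure mature miRNAs. The hairpin gene Mir10a had 7 counts in M755 and 1 each in M754 and M761, Mir10b had 4 in M755 alone, and the Mir196 genes had none.

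Partners and regulators of Hox proteins were compared between WT cerebellum and WT cortex in the same fit, where 28.2% of all genes were called and higher and 27.6% called and lower. Counts of the lists below stand against these shares. Of 9 TALE cofactors, the homeodomain partners of Hox proteins on DNA, 2 were higher and 5 lower in WT cerebellum than in WT cortex, with a median log2FC of −0.19, against 0.02 and 55.8% called over all genes tested. Meis1 was higher (log2FC = 3.28, adjusted p = 4.5e-17), and Meis2 (−2.98, adjusted p = 2.4e-05) and Pknox2 (−1.41, adjusted p = 8.6e-18) were lower. Within cerebellum Meis2 was higher in the 4 high libraries, with 2805 counts in M755, 3217 in M754, 1195 in M761 and 693 in M756, against 169 in M762 and 47 to 254 in the other 13. Library M754 exceeded M755, and M762 lay within the range of the 13. Without the 4 high libraries 2 TALE genes were higher and 4 lower.

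Of 14 upstream regulators, 10 passed the filter. Taken region by region, 7 passed among cerebellum libraries, 10 among those of the cortex and 10 among those of the striatum. Of the 10, 1 was higher and 4 were lower (median log2FC −0.77), together a share near the 55.8% of all genes called. The lower ones included Egr2 (−6.48, adjusted p = 1.6e-17), which sets Hox expression in hindbrain segments, and Cyp26a1 (−3.28, adjusted p = 6.6e-05), which degrades retinoic acid. Without the 4 libraries 1 was higher and 6 were lower.

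Of 14 Polycomb genes, which repress Hox clusters, 9 were higher and 1 lower (median 0.48, where 28.2% of all genes were higher), with Ezh2 (0.86, adjusted p = 5.4e-08), Eed (0.82, adjusted p = 4.8e-09) and Cbx7 (0.78, adjusted p = 1.0e-09) the most changed. The counts were the same, 9 and 1, without the 4 high libraries. The list summed to 520, 595 and 699 CPM in libraries M755, M754 and M761, against 792 to 848 CPM in the 13, with M756 also below the 13, and 2 of its 14 genes were lower in all 4 than in all 13. Of 10 trithorax genes, which keep Hox genes active, 7 were higher and 0 lower (median 0.34, against the same 28.2%), Kmt2c (0.85, adjusted p = 0.0013), Kdm6a (0.69, adjusted p = 0.0095) and Rbbp5 (0.45, adjusted p = 5.6e-09) the most. Of 11 genes of the PR-DUB complex and its partners, to which Mbd5 binds, 2 were higher and 5 lower (median −0.25), among them Asxl3 (−0.99, adjusted p = 6.9e-05), Foxk1 (−0.52, adjusted p = 0.0018) and Kdm1b (0.39, adjusted p = 0.0079). The 7 called were near the share of all genes called, 55.8%.

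The homeobox genes next to the clusters were also counted in the high libraries. Evx1, beside Hoxa13, had 82 counts in library M755, 77 in M754, 24 in M761 and 16 in M756, 0 to 3 in the other 13 and 0 in every cortex and striatum library. Evx2, beside Hoxd13, had 31, 83, 36 and 12 counts, and 1 to 19 in the other 13, so that M756 lay within their range. Evx2 was higher in WT cerebellum than in WT cortex (adjusted p = 1.3e-09). Of the ParaHox genes, Gsx2 was lower (log2FC = −4.31, adjusted p = 6.0e-08) and Gsx1 did not pass (−0.80, adjusted p = 0.18). Between genotypes, 0 genes of these lists were called in any region but Mbd5 itself.

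Over the 18 cerebellum libraries, the 15 genes outside the clusters whose level ranked most like the summed Hox level were Gm26673 (Spearman rho 0.932), Limk1 (0.924), Rbm20 (0.913), Gm15645 (0.901), Creg2, Bcat1, Endod1, Lamp5, Slc6a11, Chrna4, C3, Rerg, Pmfbp1, Rapgef3 and Rassf4 (0.870). Of 18157 genes, 12.9% had a rho over 0.5. The points share their library, and 5 of them hold nearly all of the Hox counts, so these values describe the ranking only.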

How the data were processed

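Cerebellum, cortex and striatum of 18 mice (10 Mbd5+/GT, 8 WT) gave 54 libraries, grouped by their labels. The deposited values are raw read counts per gene. The authors aligned reads with STAR (version 2.4.2) to Ensembl GRCm38 and counted them with its GeneCounts option. Its strand column is not given in the sources used here, so overlapping and antisense genes are uncertain. The table held 47069 genes and 92 spike-ins (0.0207% to 0.728% of a library, left out). An annotation of GRCm38 (GENCODE) named 46488 genes, and CPM are counts scaled by a library's total over genes.

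Counts were tested with edgeR 4.0.16 (R 4.3.3), TMM and robust quasi-likelihood fits, for genes that exceeded 4 counts in 8 or more libraries, with Benjamini-Hochberg adjustment over all genes tested (0.05). Regions were compared in 1 fit of 54 libraries with 6 groups that shares their spread, and genotypes within each region with 2, 4 and 4 surrogate variables (sva 3.50.0) in cerebellum, cortex and striatum. SE was the size of log2FC divided by the square root of F. DESeq2 1.42.0, no filter, a mouse block, and sets of libraries left out were alternatives. The steps were tested on simulated data.

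The members, gene lists and tests were chosen with earlier results of these data known. Named were Hox genes called in a comparison or reaching 10 counts in 9 libraries of a region, genes inside the clusters reaching 10 counts in 9 cerebellum libraries, the 3 genes of each list with the largest log2FC, and the 15 genes ranked most like the Hox sum. Hox genes called without the filter, and those described per library, come from the first of these or were chosen after their values were seen. Single genes that these rules would name are in some cases not reported here. A paralogue group needed 3 counts to be present, and a count of 0 allows up to 3. Intervals are 95% exact ones and cover counting error only.

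The 3 libraries of a mouse come from 1 animal, so mouse number pairs the regions. Deviations from group means correlated within a mouse with a median r of 0.231 (cerebellum and cortex), 0.0780 (cerebellum and striatum) and 0.0894 (cortex and striatum), and between mice with −0.00792, 0.00176 and −0.0177. Of 219 pairs of libraries within a group, 0 were identical, and the lowest chi-square per gene was 8.26. The striatum libraries of 2 mice carried a label for a repeat. Depth was 25611034 to 45718952 counts in cerebellum, 25295973 to 49027399 in cortex and 26130088 to 32110274 in striatum, so a single count lay below 0.1 CPM.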

Additional observations from a re-analysis of the deposited data

Results flagged for a closer look

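In Mbd5+/GT cerebellum (10 libraries), the summed Hox level of library M755, at 599 CPM, stood apart from the other 9 by more than Dixon's 95% limit. The same held for 25 of the 25 Hox genes that reached 10 counts there, each highest in library M755. In WT cerebellum (8 libraries) the summed level of library M754, at 176 CPM, passed the limit, and so did 14 of the 20 Hox genes that reached 10 counts, again with library M754 highest. For normally spread values, chance alone passes this limit in about 1 of 20 groups. The genes of a library are not independent of each other. A gene was admitted by 10 counts in the group, which the flagged library could supply alone, as for 5 genes in M755. The numbers of flagged genes thus follow in part from the choice of genes and add no support. Both libraries also had the lowest cerebellum marker sums (125 and 1997 CPM) and the highest cholinergic motor neuron sums (151 and 42.8 CPM) of all cerebellum libraries, and the part of these cells in the Hox values was not tested.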

How the results depend on the processing

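The filter on low counts decided how many Hox genes could be tested, from 1 with it to 32 without it over regions. In the order WT cerebellum against cortex, WT against striatum, Mbd5+/GT against cortex and Mbd5+/GT against striatum, the number called was 1, 0, 1 and 0 with the filter and 17, 19, 23 and 23 without it. Settings from here to the end of the paragraph were chosen after seeing the data, had no filter and are in the same order. DESeq2 called 11, 9, 10 and 8. Without the cerebellum library of mouse M755 the counts were 20, 21, 14 and 13, without the 4 high libraries 12, 13, 7 and 5, and without these and library M762 they were 3, 6, 7 and 6. Between WT cortex and striatum DESeq2 called 2, and Hoxd1 was the 1 called without the 4 or the 5 libraries (−1.66, adjusted p = 0.033 and 0.029). For the genotype difference of the striatum comparison DESeq2 called 1, Hoxa5, which had no count in any WT striatum library.

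With the filter, 0 Hox genes could be tested once the 4 libraries, or the library of each genotype with the most Hox counts, were left out. The replicate block, with mouse as a term, called 0 in place of 1 between Mbd5+/GT cerebellum and cortex. With no filter the block called 17, 17, 20 and 19, and it moved no other count of Hox calls by over 1.5 times against the same setting without it. Hoxd1 reversed against striatum without the 4 libraries (−0.78 in WT, −1.07 in Mbd5+/GT), without the 5 (−0.54 and −1.07) and in Mbd5+/GT without library M755 (−0.83). Its genotype difference for striatum turned to 0.23 (adjusted p = 0.98) without litter 2. In these contrasts the cause was not tested. Between genotypes in cerebellum, 1 Hox gene was called with no filter and 0 with it. From 1 count on, 1 paralogue group was present in every cerebellum library, and 0 from 3 or 10 counts or 0.1 CPM. Of 118 alternative values of the main results, 83 kept their size and 35 moved. The 83 include values of 0 between genotypes where no Hox gene passed the filter, which could not move, so they do not measure robustness. Of 77 alternative values for Hoxd1, 62 kept direction and call, 7 lost the call, 2 gained it and 6 reversed.

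At this depth 3 counts were about 0.1 CPM, so most Hox genes of cortex and striatum lie near the limit of detection, and small differences there were not detectable for most of them.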
